A study of Mus musculus with 2 samples.

Results

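The genes described here encode the subunits, regulators and assembly factors of the proteasome, chosen by symbol. They are the protein-coding genes whose symbol starts with Psma, Psmb, Psmc, Psmd, Psme, Psmf or Psmg and that a probe on the arrays names by its RefSeq accession. There were 49 such genes, measured by 70 probes of 1 spot each, among 17302 named genes. The reference holds 51 such genes, and Psma8 and Psme2b had no matched probe. All 49 were well above background on both arrays through at least 1 probe, as were 12862 named genes in all, so the filter on dim signals removed no member.

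RNA came from a mouse hybridoma labelled 1H5F9. A hybridoma is an immortal line that secretes antibody, obtained by fusion of a myeloma with a B cell, and stands for 1 such fusion rather than for B cells in an animal. Cells in RPMI 1640 with 20% fetal bovine serum received BSP-II, a peptide of the bursa of Fabricius (the organ where B cells of birds develop), at 0 µg/ml (untreated) or 5 µg/ml for 4 h. Each dose is represented by 1 single-colour Agilent array, both labelled as replicate 1 and both on the same slide. The series' text speaks of 2 independent experiments. The study asked which genes BSP-II alters in these cells. With 1 array per dose there is no replicate check and no test. "Higher" and "lower" compare these 2 arrays, which hold RNA of whole cultures, so that fewer cells making a transcript and less transcript per cell cannot be told apart.

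The proteasome degrades proteins that carry ubiquitin chains. Its 20S core is a barrel of alpha and beta rings, and the beta rings carry the proteolytic sites. The 19S cap, built from a base with a ring of ATPases and a lid, binds the ubiquitin chain, removes it and unfolds the protein. In immune cells, and after interferon gamma, Psmb8, Psmb9 and Psmb10 replace the 3 constitutive catalytic subunits, and the activator of Psme1 and Psme2 can take the place of the cap, which changes the peptides offered to MHC class I. Plasma cells and hybridomas make large amounts of antibody, and misfolded chains are returned from the endoplasmic reticulum to the proteasome.

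All 11 markers of the B lineage and plasma cells were detected, with a summed processed signal of 255735 (untreated) and 271747 (BSP-II), led by Jchain and Mzb1, while Cd79a lay near background (23.7 and 22.3). Of 6 T cell markers 5 were detected, with a sum of 777 and 820. Of 5 myeloid markers on the array 3 were detected (sum 140 and 212), and Lyz2 was not above background. Fibroblast and epithelial markers summed to 4482 and 5214, mostly Epcam. The part of these signals in the values below was not tested. Levels are given as multiples of each array's 75th percentile of signal (309 and 356 units), and differences as log2 of BSP-II minus untreated. The scanner's own error of a spot, carried to a difference, was 0.20 for 48 members and 0.35 for the dim Psmb11.

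No member differed by 1.5-fold or more, against 6.05% of all genes (1.21% higher and 4.84% lower with BSP-II). Of the 6431 genes whose level reached the median, the brighter genes, to which 47 members belonged, 1.26% did so (0.28% higher and 0.98% lower), so that a count of 0 is near their share. Psmd1 was lower and Psmg1 higher by at least 1.2-fold, 2 of 49 members, against 26.8% of all genes (8.66% higher and 18.1% lower). Among the brighter genes it was 10.7% (4.76% higher and 5.99% lower). With the local median difference around each spot subtracted, Psmd1 (−0.26) and Psmg1 (0.26) both lay just short of 1.2-fold, which is 0.263 on the log2 scale. Within 1.2-fold lay 95.9% of members, 73.2% of all genes and 89.3% of the brighter genes. The members' differences ran from −0.30 to 0.32 with a median of −0.06 and an SD of 0.11, compared with −0.03 and 0.31 for all genes and −0.0034 and 0.18 for the brighter genes. Below the all-gene median lay 30 of 49 members (50% of all genes by construction, and 2801 of the 6431 brighter genes). Scaling each array to its median in place of its 75th percentile added 0.12 to every difference and turned small negative values positive. Differences are therefore best read against the all-gene median of −0.03, which moves with them. That scaling also changed the balance of calls at 1.2-fold: of the genes past it, 32.3% were higher with BSP-II as reported and 63.7% with median scaling, where the members past it were Psmg1, Psmd10, Psmd5 and Psmd8, all higher. At 1.5-fold the share was 20.1% as reported, 44.6% with median scaling and 54.6% in the authors' deposited table, where more genes were higher than lower. That table gave another set of genes, 12407 taken without the filter on dim signals, against 12862. It held 307 higher and 255 lower genes, against 307 and 381 with median scaling.

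**Figure D1:**
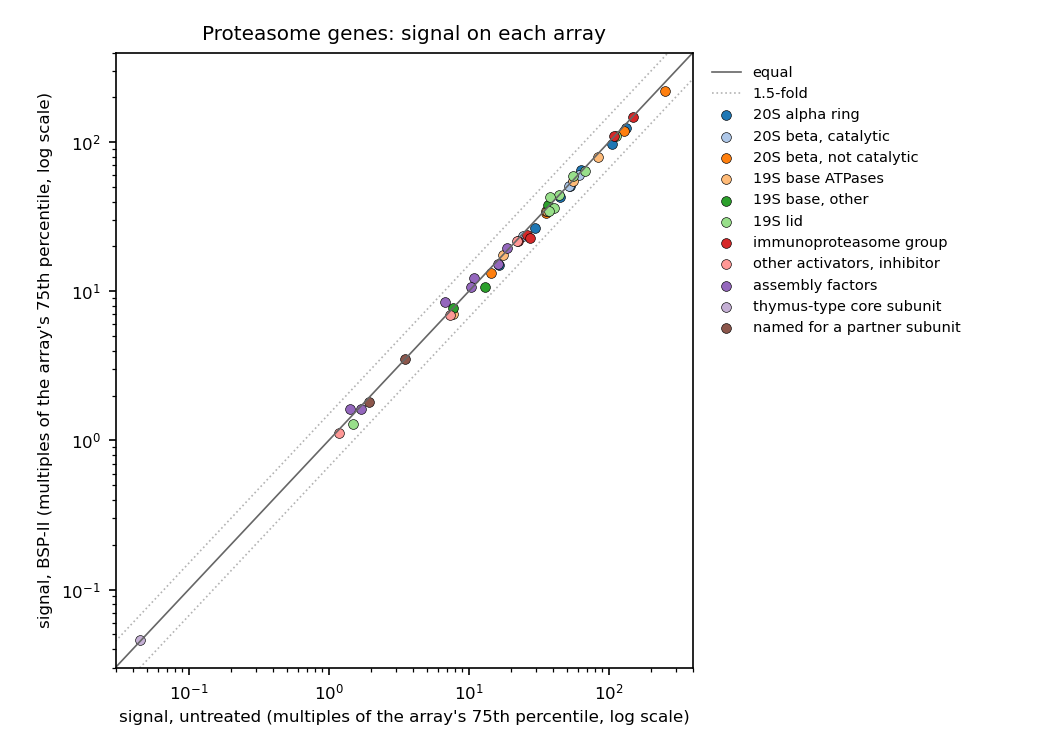
Signal of each proteasome gene on the untreated array (horizontal axis) and the BSP-II array (vertical axis), both as multiples of the array's 75th percentile on log scales; each point is 1 gene, coloured by its role, the solid line marks equality and the dotted lines 1.5-fold. All 49 points lie between the dotted lines, and levels are to be compared between arrays, not between genes.

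As scaled here, the alpha ring, which forms the gate of the core, lay slightly below the all-gene median in 6 of its 7 genes. Its median difference was −0.08, with a range from −0.15 to 0.03. Psma4 was lowest, at 29.7 without and 26.8 with BSP-II, a difference of −0.15, and its other probe gave −0.14. Psma3, at a spot in a cluster of differing spots, went from 16.5 to 15.1 (−0.13). Psma7 went from 106 to 97.9 (−0.12). Each of these differences is smaller than the spot error. Psma5 (−0.08), Psma6 (−0.07) and Psma1 (−0.05) lay nearer the all-gene median, and Psma2 (63.9 and 65.1, 0.03) was the 1 alpha gene above it. With quantile scaling Psma1, Psma5 and Psma6 also lay above that median, by 0.010, 0.0095 and 0.0029.

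In the beta ring, the 4 subunits without a proteolytic site were all below the all-gene median, by amounts within the spot error. Psmb3 was at 251 and 222, a difference of −0.18 with −0.15 at its other probe. Psmb2 was at 14.5 and 13.2 (−0.13). Psmb4 and Psmb1 differed by −0.11 and −0.08. The 3 constitutive catalytic subunits had a median of −0.04, against −0.12 for those 4. Psmb5, which carries the chymotrypsin-like site, was at 52.1 and 50.7 (−0.04). Psmb6, with the caspase-like site, was at 60.9 and 60.5 (−0.01), and Psmb7, with the trypsin-like site, at 24.4 and 23.3 (−0.06). Over the 14 core genes the SD of the differences was 0.06, and 12 of the 14 lay below the all-gene median as scaled here. With quantile scaling Psma1, Psma5, Psma6 and Psmb5 crossed to the other side of it.

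In the base of the 19S cap, the 6 ATPases had a median of −0.07 and a range from −0.14 to −0.01. Psmc3 was lowest, at 7.71 and 7.02 (−0.14), and Psmc5 highest, at 17.7 and 17.6 (−0.01, other probe −0.04). Psmc2 (−0.08, at a spot in a cluster), Psmc4 (−0.08, other probe −0.0014), Psmc1 (−0.06) and Psmc6 (−0.02) lay between them. The base subunits without ATPase activity were further apart. Psmd1, a large scaffold of the base, was at 13.1 without and 10.6 with BSP-II, a difference of −0.30 (1.23-fold lower). It was the lowest member, and its 1 probe lay outside clusters, but 15.5% of all genes were lower still. Psmd2, its partner scaffold, was at 36.6 and 37.8 (0.05), while its other probe gave −0.05. The ubiquitin receptor Psmd4 was at 7.78 and 7.76 (−0.0029).

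The 8 lid genes spread on both sides of the all-gene median, with a median of −0.06. Psmd13 was lowest, at 1.49 and 1.29 (−0.20). Psmd11 was at 40.4 and 36.2 (−0.16). Psmd8 was highest, at 38.0 and 42.7 (0.17). These 3 rest on 1 probe each, and none differed by more than its spot error as scaled here. Psmd8 did with median scaling (0.29), which adds the same amount to every gene. Against the all-gene median Psmd8 was at 0.195 with either scaling, short of its spot error of 0.204. Psmd14, the enzyme that cuts the ubiquitin chain off, was at 55.2 and 59.2 (0.10), yet its other probe gave −0.10. Psmd12 was at −0.09 with 0.01 and −0.21 at its other probes, and Psmd7 at 0.02 with −0.09. For these 3 genes the probes disagreed in sign, so that no direction can be given. Psmd6 (−0.11) and Psmd3 (−0.03) completed the lid.

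**Figure D2:**
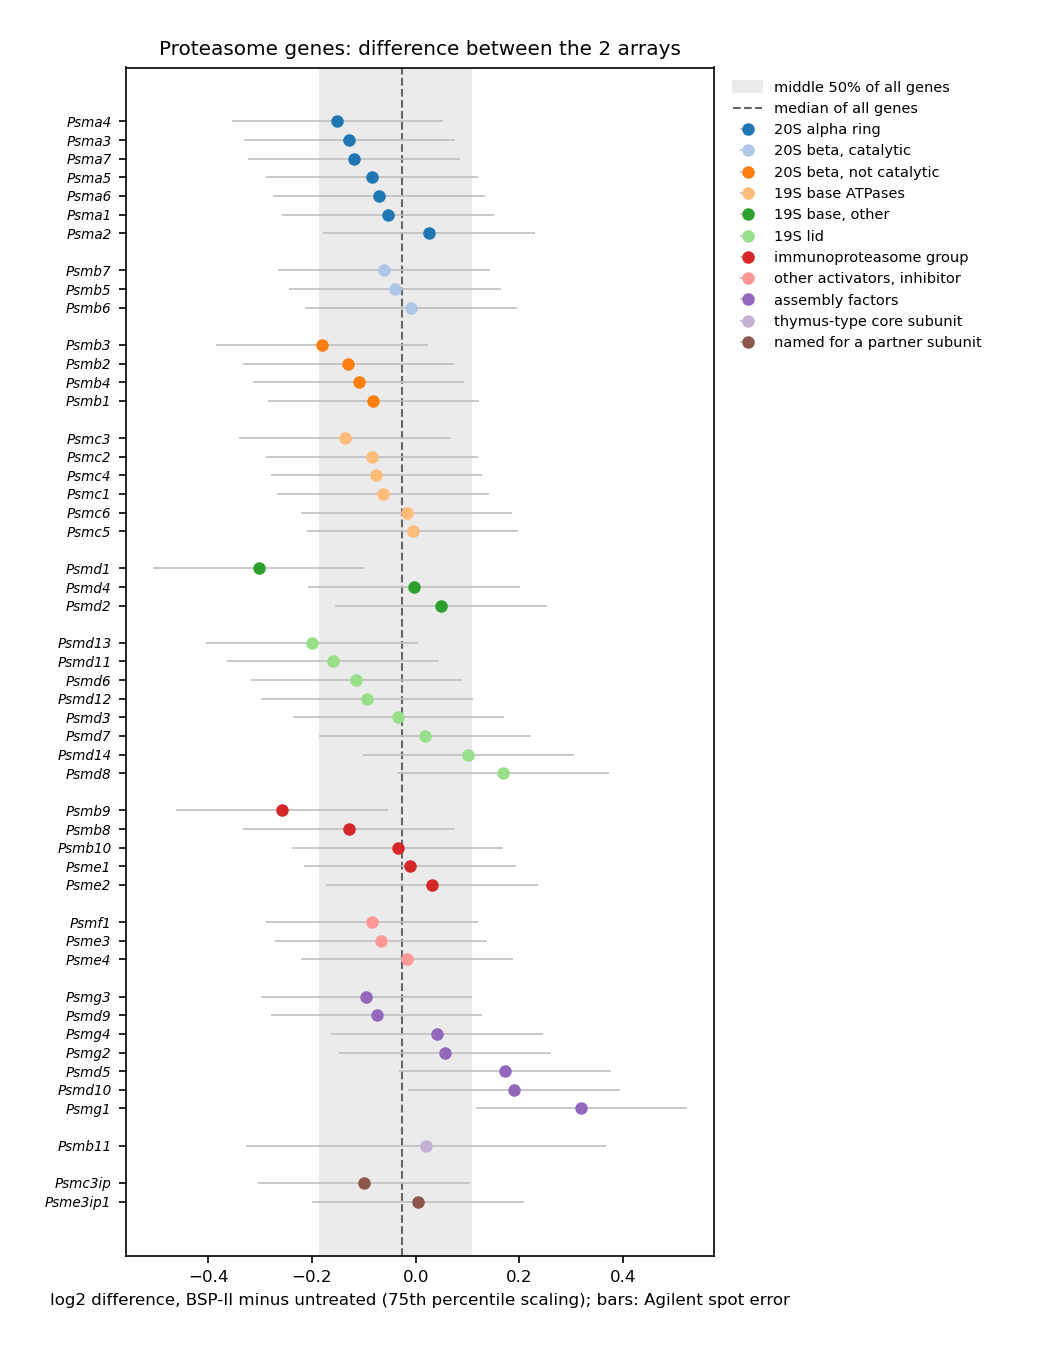
Log2 difference of BSP-II minus untreated (horizontal axis) for the 49 proteasome genes, grouped and coloured by role; points are the brightest probe of each gene, bars the scanner's spot error, the dashed line the median of all genes and the grey band the middle 50% of all genes. Psmd1 and Psmb9 on the low side and Psmg1 on the high side are the 3 genes whose bar does not reach a difference of 0 with the scaling plotted.

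The immunoproteasome group held no gene that differed by 1.2-fold, and its members lay on both sides of the all-gene median, 3 of 5 below it. Psmb9, the replacement for Psmb6, was at 27.4 without and 22.9 with BSP-II, a difference of −0.26. As scaled here this exceeded its spot error of 0.20, and 18.4% of all genes were lower. Read from 0, Psmb9 did not exceed it with median scaling or in the authors' deposited table (−0.14 in both). Against the all-gene median, Psmb9 was at −0.23 and −0.24 in these 2, beyond the spot error. It stayed within that error, against the same median, without background subtraction (−0.17) and with normexp (−0.19). Psmb8, the replacement for Psmb5, was at 25.9 and 23.7 (−0.13), but its other probe gave 0.05. Psmb10, the replacement for Psmb7, was at 22.4 and 21.9 (−0.03). The activator genes were nearly equal on the arrays. Psme1 was at 149 and 147 (−0.01), and Psme2 at 108 and 111 (0.03, other probe −0.01).

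Each immune catalytic subunit was set against the subunit it replaces. The difference of Psmb9 minus that of Psmb6 was −0.25, that of Psmb8 minus Psmb5 −0.09 (0.09 with the other probe of Psmb8, so without a settled sign), and that of Psmb10 minus Psmb7 0.03, each with a combined spot error of 0.29. These values all lie within that error. By group, the median difference was −0.08 for the 20S core (14 genes), −0.06 for the 19S base and lid (17) and −0.03 for the immunoproteasome group (5). The immunoproteasome group lay 0.05 above the core by medians and 0.0051 by means, and 0.09 above it by medians with each probe counted singly.

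Activators and inhibitors outside the immune group were also nearly equal. Psme3, which forms a nuclear activator, was at −0.07. Psme4, another nuclear activator, was at −0.02 with 0.05 at its other detected probe. The inhibitor-like regulator Psmf1 was at −0.08 with −0.0033 and −0.0031 at its other probes.

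The 7 assembly factors, chaperones that build the particle and leave it, were the role with the highest median, 0.06 against −0.03 for all genes, and 5 of the 7 lay above the all-gene median. Psmg1, a chaperone of the alpha ring, was the highest member, at 6.81 without and 8.49 with BSP-II, a difference of 0.32 (1.25-fold higher), with 94.2% of all genes below it. Psmg2, its partner in the chaperone pair, was at 18.7 and 19.4 (0.06, other probe 0.03). The factors Psmg4 and Psmg3, which also work as a pair, were at 0.04 and −0.09. Chaperones of the base were split as well. Psmd10, also known as gankyrin, was at 1.42 and 1.62 (0.19). Psmd5 was at 10.9 and 12.3 (0.17). Psmd9 was at 1.71 and 1.63 (−0.08, other probe −0.01). Psmg1, which rests on 1 probe, differed by more than its spot error. Psmd10 did so when read against the all-gene median (0.22). Psmd10 (0.31) and Psmd5 (0.29) did so with median scaling, which adds the same amount to every gene. Against the all-gene median Psmd5 was at 0.198 with either scaling, short of its spot error of 0.204.

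The remaining members are not subunits of the usual particle. Psmb11, the core subunit of the thymus epithelium, was barely above background, at processed signals of 13.9 and 16.2, and its other probe was not above background on either array. Psmc3ip, a meiotic recombination factor named for a subunit it binds, was at −0.10 with −0.03 at its other probe. Psme3ip1, which binds the product of Psme3, was at 0.01 with 0.24 at a probe with signals of 79.8 and 109.

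Where 2 or more probes of a gene were detected, they give a second view of the error. This held for 16 members. The range between the probes of a gene had a median of 0.07 and reached 0.23 for Psme3ip1 and 0.22 for Psmd12, and in 7 of the 16 genes the probes had opposite signs with the scaling used here. Psma4, Psmb3 and Psmg2 had probes within 0.04 of each other, all on the same side of the all-gene median. The 4 members furthest from the median (Psmg1, Psmd1, Psmb9 and Psmd10) have 1 detected probe each, so that this check could not be made for them.

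**Figure D3:**
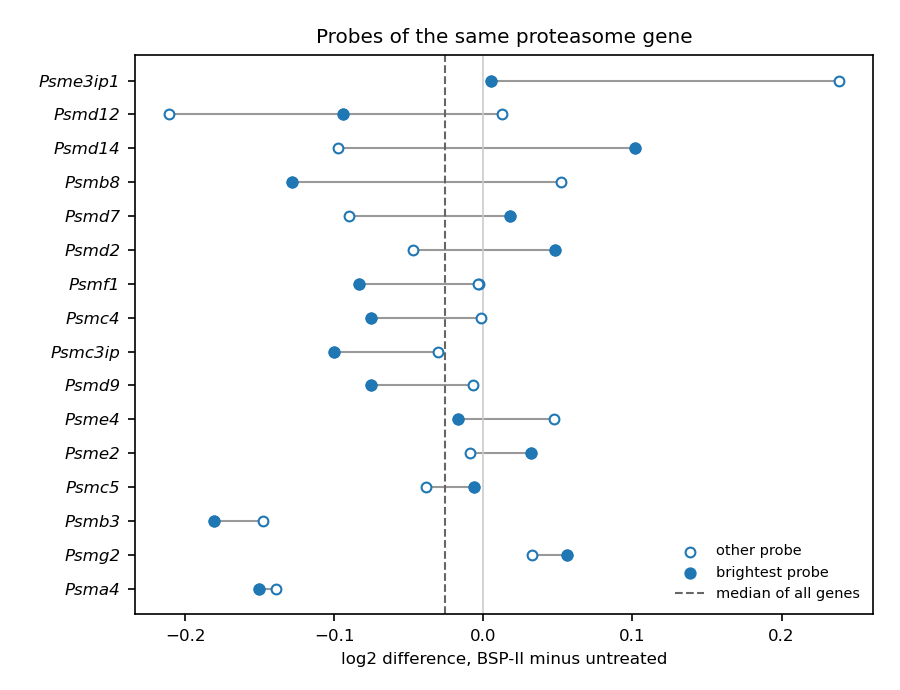
Log2 difference of BSP-II minus untreated (horizontal axis) at each detected probe of the 16 proteasome genes with several probes; filled points are the brightest probe of the gene, open points its other probes, and the dashed line is the median of all genes. The probes of Psma4, Psmb3 and Psmg2 lie close together, while those of Psmb8, Psmd12 and Psmd14 lie on both sides of 0.

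Position on the array was set against these values. Members in the earlier rows had a median of −0.07 (31 genes) and those in the later rows −0.04 (18 genes), against −0.03 for all genes in either place. With local median differences subtracted, the members' median minus the all-gene median went from −0.037 to −0.017. That of the base and lid went from −0.037 to −0.0061. The spots of 2 members lay in clusters, with 2 or more neighbours inside 3 rows and columns that differed 2-fold or more the same way, as did those of 8.06% of all genes.

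Partners of the proteasome that are not members were also measured. Of 24 ubiquitin-proteasome genes listed, 23 were detected, with a median of 0.01 and a range from −0.15 to 0.28. None differed by 1.5-fold, against 6.05% of all genes and 1.26% of the brighter genes, among which all 23 were. Adrm1, a ubiquitin receptor of the base, was at 6.28 and 7.62 (0.28), but its other probe gave −0.10. For Zfand5 the brightest probe gave 0.22 and the other −0.16. The unfoldase Vcp, which feeds substrates to the proteasome, was at 44.1 and 39.7 (−0.15, other probe −0.14). Pomp, the maturation factor of the core, was at 71.5 and 65.3 (−0.13).

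Of 8 measured genes around NRF1, the factor that raises proteasome transcription when the proteasome is inhibited, 1 differed by 1.5-fold, against 6.05% of all genes. The gene of that factor, Nfe2l1, was at 22.3 and 24.6 (0.14). Maff, a small partner of such factors, was at 0.159 and 0.244 (0.62), at processed signals of 49.3 and 87.1. The repressor Bach1 was at 0.407 and 0.285 (−0.51). Mafg was at 0.25 and Mafk at −0.23. These 4 rest on 1 detected probe each, with Maff and Mafg above and Bach1 and Mafk below the all-gene median.

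Of 14 listed regulators and partners of the immunoproteasome genes, 12 were detected on both arrays and none differed by 1.5-fold, near the 6.05% of all genes that did. Irf1, which interferon induces, was at 12.7 and 12.3 (−0.05, other probe −0.16). The peptide transporter gene Tap1 was at 0.851 and 0.873 (0.04), at a clustered spot. Tap2 was at 0.239 and 0.291 (0.29) and the peptidase Erap1 at 5.63 and 6.80 (0.27). The class I light chain B2m gave −0.20 at its brightest probe and 0.12 at the other.

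Letters of the promoters were searched to show what the members share there. RefSeq windows (build GRCm38.p6) running from 250 bases before to 50 after a start matched 42 of the 49 members, and the first window listed was taken for each of 27025 genes. Both strands were searched for 14 motifs. The core of the antioxidant response element that NRF1 binds, TGACNNNGC, stood in 6 of 42 members (14.3%, against 12.5% of all genes): Psmb5, Psmb6, Psmc6, Psmd9, Psmd12 and Psme4. Their differences ran from −0.09 to −0.01, with a median of −0.03 against −0.07 for the matched members without the motif. The ETS motif CCGGAAGT stood in 8 of 42 members (against 4.00% of all genes), with differences from −0.20 to −0.02. Their median was −0.09, against −0.04 for the matched members without it. Neither gap in medians was tested. The GC box GGGCGG stood in 23 (54.8%, against 35.9%). Windows of members also held more G and C, a median of 57.3% against 52.7%. An interferon-response (IRF) motif stood in 5 members (11.9%, against 3.49%), Psmb3, Psmd4, Psmd9, Psme1 and Psmg4, and the palindrome TTCNNNGAA in 3 (7.14%, against 8.47%), Psmb8, Psmd2 and Psmg1. CCAAT stood in 15 (35.7%, against 37.9%), TATAAA in 4 (9.52%, against 14.2%) and AAGATGGC in 3 (7.14%, against 2.88%). A longer YY1 form that contains AAGATGGC stood in 1 (2.38%, against 0.699%), the ZNF143 motif in 2 (4.76%, against 1.98%) and the motif of nuclear respiratory factor in 1 (2.38%, against 0.625%). No member held the cyclic AMP element TGACGTCA (1.88% of all genes), an NF-kB motif (1.17%) or the E2F motif TTTCGCGC (0.318%). TGACGTCA and TGACNNNGC open with the same letters, but their matches cannot overlap. A match describes letters in a window, not a bound site, and these windows were not measured here.

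The promoter windows of 4 members are shown: Psmg1 and Psmd1, the highest and lowest members, and Psmb6 and Psmb9, the pair of replaced and replacing subunit that differed most. Each is given 5′ to 3′ on the strand of the gene in lower case, with matches to any of the 14 motifs on either strand in capitals.
Psmg1 (chr16:95990911-95991210, minus strand): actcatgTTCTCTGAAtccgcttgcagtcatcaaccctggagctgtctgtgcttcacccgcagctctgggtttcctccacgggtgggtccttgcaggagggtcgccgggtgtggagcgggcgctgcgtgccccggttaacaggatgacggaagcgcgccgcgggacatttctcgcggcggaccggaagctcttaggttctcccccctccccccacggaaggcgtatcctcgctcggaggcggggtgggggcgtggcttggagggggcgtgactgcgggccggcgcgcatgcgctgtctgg
Psmd1 (chr1:86064369-86064668, plus strand): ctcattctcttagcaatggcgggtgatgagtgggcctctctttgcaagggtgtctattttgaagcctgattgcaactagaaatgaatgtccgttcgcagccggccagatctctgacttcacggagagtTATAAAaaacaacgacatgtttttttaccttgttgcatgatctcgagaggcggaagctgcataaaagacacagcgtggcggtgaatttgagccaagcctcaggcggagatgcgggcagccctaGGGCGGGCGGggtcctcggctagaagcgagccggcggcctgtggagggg
Psmb6 (chr11:70525107-70525406, plus strand): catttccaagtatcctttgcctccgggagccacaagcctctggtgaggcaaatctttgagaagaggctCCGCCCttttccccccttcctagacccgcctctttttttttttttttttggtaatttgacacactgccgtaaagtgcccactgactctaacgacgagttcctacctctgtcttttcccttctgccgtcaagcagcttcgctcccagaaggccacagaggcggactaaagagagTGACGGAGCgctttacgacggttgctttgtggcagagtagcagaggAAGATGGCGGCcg
Psmb9 (chr17:34187281-34187580, minus strand): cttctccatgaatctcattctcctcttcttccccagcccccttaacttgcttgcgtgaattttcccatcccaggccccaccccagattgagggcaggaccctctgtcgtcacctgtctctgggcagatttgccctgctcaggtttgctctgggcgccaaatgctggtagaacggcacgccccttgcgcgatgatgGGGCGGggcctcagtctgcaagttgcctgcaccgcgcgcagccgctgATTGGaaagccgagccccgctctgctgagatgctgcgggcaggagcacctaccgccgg
The Psmg1 window holds 1 match, TTCNNNGAA. The Psmd1 window holds TATAAA and a run of overlapping GGGCGG matches. The Psmb6 window holds TGACNNNGC, a GGGCGG on the other strand and AAGATGGC, the last of which continues into the longer YY1 form. The Psmb9 window holds GGGCGG and, on the other strand, CCAAT, and neither the IRF motif nor TTCNNNGAA.

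The order of the groups was compared across processing, though some alternatives, such as median scaling, could not change it. As reported, the core was lowest, followed by the base and lid. Without background subtraction the core (−0.0058) lay above the base and lid (−0.0150), against the all-gene median. With the dimmest detected probe of a gene they were nearly level, at −0.0493 and −0.0501. Against the all-gene median, the 20S core lay between −0.08 and −0.01 and the base and lid between −0.06 and −0.0044 under the 15 alternatives run for them. The activators and assembly factors together lay between 0.02 and 0.07. Under the same 15, the immunoproteasome group lay between −0.03 and 0.02 and so had no settled side. It reached −0.06 only with 1 member left out, which was not run for the other 3 groups.

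**Figure D4:**
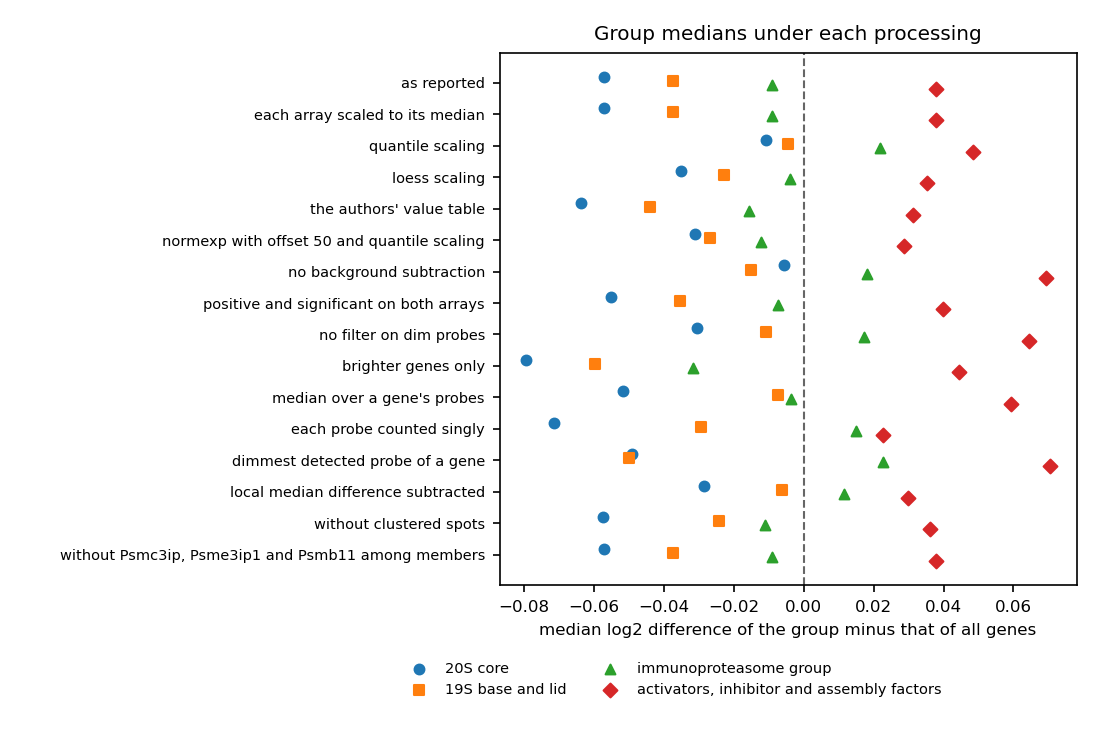
Median log2 difference of each group minus that of all genes (horizontal axis) under the processing as reported and 15 alternatives (vertical axis); each symbol is 1 group of proteasome genes, and the dashed line marks the all-gene median. The core and the base and lid stay left of the line and the activators and assembly factors right of it, while the immunoproteasome group lies on either side. Median scaling moves groups and all genes alike, so it cannot shift a symbol.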

How the data were processed

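The submitters' processing notes name Agilent Feature Extraction, version 10.5.1.1. The deposited intensity values are, per the file headers, a background-subtracted processed signal with its error, and raw median signals of spot and background. The deposited flags are 0 or 1. The authors' deposited log2 value table lists 23296 probes and differs from the log2 of that signal by a fixed amount on each array (−4.85 and −4.94) within 0.0001 for 99.8% of probes matched on each array; the untreated column's median is 2.88 and the BSP-II column's 2.99, and the rule behind these amounts stays unknown, while scale and direction follow from the match.

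Log2 processed signals were reduced by the array's 75th percentile. Control spots and 189 outlier spots were left out, and spots of a probe averaged. Of 41163 probes, 25091 matched a gene by accession without version in a RefSeq table of GRCm38.p6, which served only to name genes (the headers give mm9 for the grid). Each gene is given by its brightest probe well above background on both arrays on most of its spots, which left 12862 genes. Brighter genes have a level no lower than the median of these. No level of a probe was set against that of another. Members and lists were chosen with earlier results of these data known. Every member may be named, and of each list of partners the 4 largest differences plus Nfe2l1, Irf1, Tap1, Pomp and Adrm1, except that 2 genes of these lists are not reported here. Ddi2, Nlrc5 and Paaf1 had no matched probe. Hrd1, which is another name of Syvn1, had no match of its own. Irf8 was not detected on both arrays. The 4 promoters and the 14 motifs were chosen after values were seen. The steps were tested on simulated data. Python 3.11.15 (numpy 2.4.6, pandas 2.3.3, matplotlib 3.10.9) and R 4.3.3 with limma 3.58.1 were used. The number of arrays limits the precision.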

Additional observations from a re-analysis of the deposited data

How the results depend on the processing

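Alternatives were other scalings (median, quantile, loess), the authors' value table, normexp with an offset of 50, no background subtraction, 3 other treatments of dim probes, other choices among a gene's probes, subtraction of local medians, means for medians and leaving out each member. Leaving out clustered spots, and leaving out Psmc3ip, Psme3ip1 and Psmb11, were added after seeing the data. Values were taken as moved past 0.07, the SD between repeat spots (median over 157 probes). That is larger than the group medians themselves, so it says nothing about their stability, and their ranges are given. The median of all members minus that of all genes, −0.04 as reported, lay between −0.06 and 0.01 and kept its sign in 16 of 18 alternatives. That of the immunoproteasome group lay between −0.06 and 0.02 and kept its sign in 11 of 18. These counts overstate stability, since some alternatives could hardly differ. Median scaling moves members and all genes alike. The authors' table is nearly the same signal plus a fixed amount. Psmc3ip, Psme3ip1 and Psmb11 belong to none of the groups compared. The gap between immunoproteasome and core lay between 0.0013 and 0.09. Members below the all-gene median numbered 24 of 49 (no background subtraction) to 34 of 47 (brighter genes), and 38 of 67 when probes were counted singly. The count of members at least 1.5-fold different stayed at 0 under the alternatives of processing run for it, and was 2 at 1.2-fold. Of 633 values of single members, 31 moved, and 30 members had none that did. This count overstates stability too. For the 33 members with 1 detected probe, choices among a gene's probes return the same difference. Median scaling, the authors' table and other filters on dim signals could hardly shift a member against the all-gene median. Psmd1, Psmb9 and Psmg1 kept their sides of the all-gene median, at −0.30 to −0.23, −0.25 to −0.17 and 0.25 to 0.42. No paired analysis was possible because each group has 1 array. Near background, only Psmb11 among the members is limited by its signal.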

Other observations

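Several partners of the proteasome had a dimmer probe that lay further below 0 than their brightest one. Syvn1, a ubiquitin ligase of the endoplasmic reticulum, was at −0.16, and its dimmer probe at −0.57. Uba1, the main ubiquitin-activating enzyme, was at −0.02 (−0.36 at the dimmer probe), and Ufd1, a cofactor of Vcp, at −0.09 (−0.32). Txnl1, a thioredoxin-like protein bound to the proteasome, was at 0.01 (−0.30), and Rad23b, a shuttle for ubiquitinated proteins, at 0.03 (−0.23). These genes were picked after their values were seen. Among the members, the dimmer detected probes gave no value below −0.21 (Psmd12).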
